A study of Bos taurus with 6 samples.

Results

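CpG-dense windows of the cattle genome that were nonetheless highly methylated were examined in whole-genome bisulfite sequencing of rumen epithelial primary cells (REPC), cells cultured from the absorptive lining of the bovine forestomach. A window was a fixed stretch of 500 bp on an autosome. It was called CpG-dense when it held more than 30 distinct covered CpGs, and it was kept when the 6 libraries together gave at least 20 reads and fewer than 20 reads per covered cytosine. Of 42679 such CpG-dense windows, 9540 (22.4%) had a pooled methylation level of 80% or more. These 9540 windows, 0.221% of the 4319174 autosomal windows with a covered CpG and 1.69% of the autosomal reads at CpGs, are called the methylated dense windows here. The methylation level is the number of methylated reads divided by all reads at the CpG cytosines concerned. Reads were counted at each cytosine, and the read number of a window is the sum over its cytosines. A read over several CpGs therefore counted several times, and a window held fewer separate reads than its number. Since the pooled level chose the windows, the high level itself is a description of them and was not tested.

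All cells came from 1 two-week-old Holstein bull calf that had been fed milk replacer. There were 3 control libraries of untreated REPC and 3 libraries of REPC kept in 5 mM butyrate for 24 h. Nothing in the labels tied a library to a separate animal, so every permutation p-value below measures the spread between these 6 libraries. The logistic regression of single windows weighs counting error alone. It treats all counts in a window as independent, which counts at several CpGs of the same read are not, so its q values are too small to that extent. Butyrate replicates 1 and 3 were sequenced in lane 5, and butyrate replicate 2 and all controls in lane 6. Total reads at CpGs ranged from 18793438 to 23842285 per library, and reads in the methylated dense windows from 292741 to 416411.

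In mammalian DNA most CpGs carry a methyl group on the cytosine, added after replication by maintenance methyltransferases and set up by de novo methyltransferases. Stretches dense in CpGs, called CpG islands, are the known exception, since many of them lie at gene promoters and stay free of methylation in most cells. Dense stretches that are methylated are known from gene bodies, from repeats and from promoters kept silent outside the germline. Butyrate arises from microbial fermentation in the rumen, is used as fuel by this epithelium, and inhibits histone deacetylases.

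The CpG-dense windows fell into a low and a high group with few between. A total of 27210 windows (63.8%) were under 20% methylated, and 5929 (13.9%) lay from 20% to under 80%; these are called the low and the intermediate dense windows. The fullest 5-point class was the lowest, with 22638 windows under 5%, and the emptiest was that from 45% to 50%, with 287. A rise on the high side ended in a peak of 3989 windows from 90% to 95%. Of the methylated dense windows themselves, 17.7% lay from 80% to 85%, 28.1% from 85% to 90%, 41.8% from 90% to 95% and 12.3% above that.

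**Figure D1:**
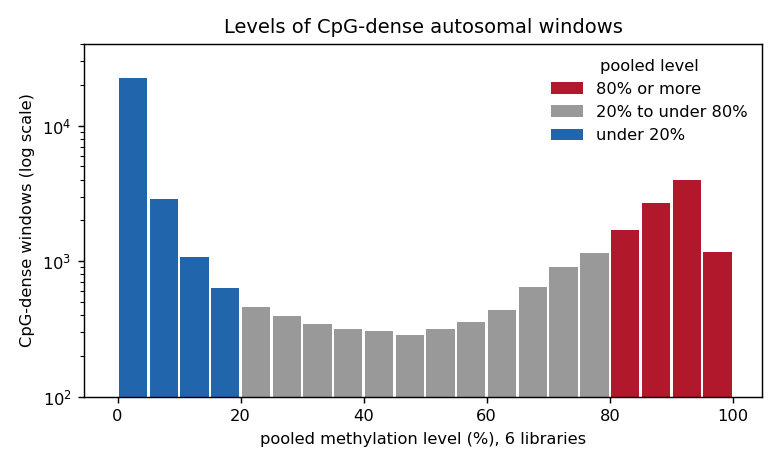
Number of CpG-dense autosomal windows (log scale) by their methylation level pooled over 6 libraries, in classes of 5 percentage points. Blue bars are windows under 20%, grey bars those from 20% to under 80%, and red bars the 9540 windows at 80% or more, which peak from 90% to 95%.

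The methylated dense windows were the less crowded of the dense windows. They held a median of 35 distinct CpGs (range 31 to 89), the intermediate dense windows also 35 and the low dense windows 43. Of windows with 31 to 35 CpGs, 36.3% were methylated. The share was 26.6% at 36 to 40 CpGs, 15.6% at 41 to 50, 6.71% at 51 to 60 and 2.39% above 60. The low share ran the other way, from 41.4% in the least crowded class to 94.1% in the most crowded. Only 96 methylated dense windows had more than 60 CpGs.

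Pooled coverage of a methylated dense window was a median of 206 reads (range 37 to 1383), or 3.2 reads per covered cytosine over the 6 libraries. In a single library 88.3% to 95.8% of the windows had 10 or more reads. Divided by the autosomal mean of the same library, reads per cytosine were 1.01 ± 0.046 (SD, n = 6) in the methylated, 1.01 ± 0.0281 in the low and 1.33 ± 0.0468 in the intermediate dense windows. Methylated minus intermediate dense windows was −0.342 to −0.315 in the 6 libraries. The medians of pooled reads per cytosine were close, at 3.2 in the methylated, 3.13 in the low and 3.32 in the intermediate dense windows. The 95th percentiles were 4.82, 4.88 and 14.3, so the intermediate class stood out in its deepest windows. These depths are a description with no test, since the rule used reads per cytosine. Its limit removed 2500 dense windows, 85.3% of them at 60% to 80%.

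The level held in libraries whose own level had no part in the choice. Distinct CpGs and covered cytosines were still counted over all 6 libraries. When the rule took reads and level from 5 libraries and the level was read in the library left out, 9485 to 9545 windows were chosen. Their level in the left-out library was 89.3% for each control and 89.8% for each butyrate library, compared with 89.9% to 90% in the 5 choosing libraries. Of chosen windows with 20 or more reads in the left-out library, 88.9% to 90.8% were again at 80% or more, and 0.0819% to 0.154% were under 50%. At most 1 window per library fell under 20%. Leaving a library out also shifts the balance of control and butyrate libraries that choose, so these values carry no comparison of treatment.

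Libraries varied within a window by a few points at the median. The windows were chosen by the pooled level of these same libraries, so the spread is a description. Of the methylated dense windows, 2485 had 20 or more reads in every library, and 1687 of these (67.9%) were at 80% or more in all 6. The median SD within a window was 4.05 points in control and 3.84 in butyrate (n = 3 each), and the median range over 6 libraries was 12.1 points. In 3 of the 2485 windows a library was under 50%. The widest departure was at chromosome 20, 69446501 to 69447000 (33 CpGs), where control replicate 1 read 31.8% of 22 reads. The other 5 libraries there lay between 85.3% and 100%.

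High methylation reached down to single cytosines among the few with enough reads to judge. The windows held 620760 covered cytosines, of which 8818 (1.42%) had 10 or more pooled reads. Of these, 87.3% were at 80% or more, 73.0% at 90% or more, 12.5% between 20% and 80%, and 0.261% (23 cytosines) under 20%. In low dense windows 95.2% of 28185 such cytosines were under 20%. The cytosines with 10 pooled reads were counted in windows chosen by their level, so these shares are a description. They cover the most deeply read cytosines, since the median window had 3.2 pooled reads per cytosine, and may not stand for the rest.

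Cytosines that read as unmethylated inside the windows mostly stayed so in the other group. In the pooled control libraries 87 of 28354 cytosines with 5 or more reads had no methylated read. Read in the butyrate libraries, which had no part in that choice, they gave 22 methylated of 187 reads, 11.8% (exact binomial 95% interval 7.52% to 17.3%). The reverse choice gave 56 cytosines of 23402, and in control 30 of 141 reads were methylated, 21.3% (14.8% to 29%). Fully methylated cytosines chosen the same way read 94.0% in butyrate and 93.4% in control. The rare cytosines that read as unmethylated were thus far below their windows in both directions. Sequence variants of this calf at these positions were not examined. Reads that span several CpGs and duplicate reads are not independent, so all intervals cover counting error only.

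Both strands of a CpG went together. Where the cytosine on the first strand had 5 or more reads and none methylated (182 CpGs), the partner cytosine on the second strand read 16.0% of 511 reads. Where it was fully methylated (39872 CpGs), the partner read 93.9% of 129615 reads. With the second strand as the choosing strand, the first read 15.3% after no methylated read and 93.4% after full methylation. Reads of both strands counted in the pooled level that chose the windows, so these partner levels are a description. Over 267820 CpGs covered on both strands the second strand was higher than the first, at 90.6% ± 0.239 and 90.1% ± 0.271 (SD, n = 6). The difference was 0.517 points (range over libraries 0.466 to 0.592, two-sided exact sign-flip permutation test over the 6 libraries, p = 0.031, the smallest p they can give). The same difference in all other autosomal windows was 0.362 points (0.241 to 0.430), and the gap between both values was 0.155 points (exact sign-flip permutation test, p = 0.031).

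Pooled over the methylated dense windows, the level of a cytosine rose with local crowding, although the methylated ones were the less crowded of the dense windows. Between the methylated dense windows it rose with crowding too, from a control mean of 89.3% at 31 to 35 CpGs to 91.0% above 50. These cytosines counted in the pooled level that chose the windows, so this is a description. Cytosines whose nearest other covered CpG lay at most 2 bp away read 91.6% ± 0.22 (SD, n = 6). The level was 90.8% ± 0.285 at 3 to 5 bp, 90.1% ± 0.229 at 6 to 10 bp, 88.0% ± 0.303 at 11 to 20 bp and 84.5% ± 0.326 beyond 20 bp. The lowest library of each class was above the highest library of the next wider class, most narrowly between 3 to 5 bp and 6 to 10 bp (90.4% and 90.3%). Neither the base sequence nor repeats could be read at these distances, since no genome of the build was used here.

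Regular repetition of CpG spacing was rare. For windows of at most 40 CpGs, the lag between 12 and 200 bp that brought most CpGs onto other CpGs was found. It matched 60% or more of the CpGs in 24 of 7511 methylated dense windows (0.32%), 19 of 4558 intermediate (0.417%) and 4 of 11014 low dense windows (0.0363%). The median best match was 22.6%, 22.7% and 22.9%.

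The surroundings of the windows, which the rule did not use, were methylated as well. Windows 500 bp to 5 kb to either side with 30 or fewer CpGs could not be members of any dense class. Distances ran from window start to window start, so the nearest flank window directly abutted the dense window. It may hold the rest of the same CpG-rich stretch. Around methylated dense windows the flank windows read 77.8% ± 0.322 (SD, n = 6). They read 70.5% ± 0.226 around intermediate and 57.1% ± 0.265 around low dense windows. The flanks of the methylated dense windows were 7.32 points above those of the intermediate (range over libraries 7.17 to 7.44) and 20.8 points above those of the low dense windows (20.5 to 20.9), in 6 of 6 libraries each (exact sign-flip permutation test, p = 0.031 each). The libraries share the windows, so this test covers the spread between libraries and not that between windows. The methylated dense windows were themselves 12.1 ± 0.153 points above their own flanks.

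The difference was widest close by. At 500 bp to 1 kb, the abutting window and the next one, the flanks differed by 13.8 points from those of intermediate and by 53.6 points from those of low dense windows. At 5 to 10 kb both gaps were near each other, at 4.66 and 5.29 points. Moving outward from a methylated dense window, the level of CpG-poorer windows fell from 84.3% at 0.5 kb to 80.7% at 1 kb, 77.0% at 5 kb and 73.8% at 100 kb. Around low dense windows it rose from 17.7% to 35.6%, 67.9% and 72.0% at the same distances. No dip in methylation stood beside the methylated dense windows at the 0.5 kb step, where the average of their flanks was highest.

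**Figure D2:**
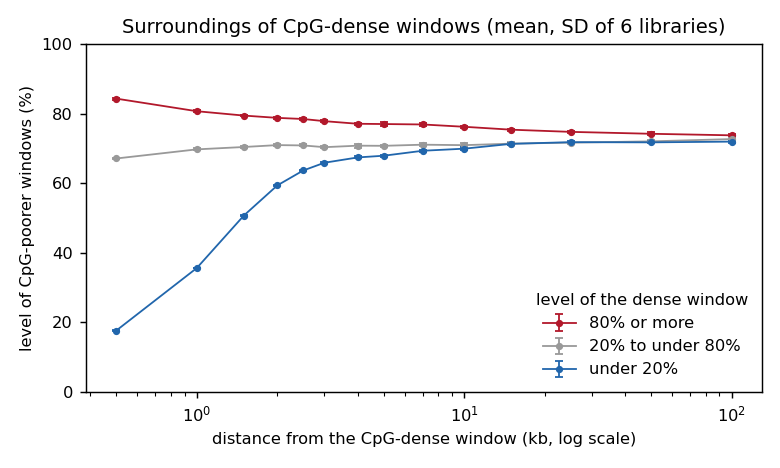
Mean methylation level (%) of windows with 30 or fewer CpGs against distance (kb, log scale) from CpG-dense windows of 3 classes; points are means and bars SDs of 6 libraries, most of them smaller than the points. Distances run from window start to window start, so 0.5 kb is the abutting window. Around windows at 80% or more (red) the level falls from 84.3% at 0.5 kb to 73.8% at 100 kb, and around windows under 20% (blue) it rises from 17.7% to 72.0%.

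Methylated and low dense windows rarely touched. A methylated dense window had another methylated one directly beside it in 34.0% of cases, an intermediate one in 7.38% and a low one in 0.409% (39 windows), and 59.9% had no dense neighbour. Of the low dense windows, 67.6% had a low neighbour. The nearest low dense window was a median of 18.5 kb away from a methylated and 14.5 kb from an intermediate dense window. It was within 1 kb for 1.64% of the methylated and 16.9% of the intermediate ones. For 47.0% of the methylated and 43.1% of the intermediate dense windows there was none within 20 kb.

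Most methylated dense windows stood alone. They formed 7665 runs of neighbouring windows, and 34.0% of the windows were in runs of at least 2 windows, compared with 67.6% for low and 21.2% for intermediate dense windows. The longest run had 8 windows, and the longest run of low dense windows had 13 (6500 bp). On the UMD3.1 coordinates of the deposited files the longest methylated run was at chr11:106462001-106466000, with 326 CpGs and 2173 reads, 0.849 Mb from the distal end. Its control libraries read 92.1%, 91.9% and 93.5%, and its butyrate libraries 93.1%, 95.1% and 90.3%. The groups overlapped (difference 0.34 points, exact permutation test, p = 0.9).

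There were 4 runs of 7 windows, of which the earliest 2 in genome order are given here, and both were near the start of chromosome 14. At chr14:2078501-2082000 (334 CpGs, 2373 reads) the control libraries read 91.0%, 94.6% and 92.9% and the butyrate libraries 96.3%, 95% and 95.2%. The groups did not overlap there, and the difference of 2.67 points had p = 0.1, the smallest p that 3 against 3 libraries can give (exact permutation test). At chr14:2085001-2088500 (272 CpGs) the means were 93.8% ± 0.231 and 94.7% ± 1.4 (SD, n = 3), and the groups overlapped (exact permutation test, p = 0.3). These 2 runs lay 3 kb apart and are not independent places.

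The methylated dense windows were gathered at the distal ends of the autosomes, the ends with the highest coordinates. Within 5 Mb of the highest covered position lay 4977 of them (52.2%), in 6.35% of the autosomal windows, compared with 11.8% of the low dense windows. The intermediate dense windows were gathered there too, with 2515 of 5929 (42.4%). In the distal 5 Mb, 46.5% of the dense windows were methylated, compared with 14.3% elsewhere. The share was higher in the distal 5 Mb on each of the 29 autosomes. Intermediate windows made up 23.5% of the dense windows there and 10.7% elsewhere, with a higher distal share on 27 autosomes. With distance to the distal end the share of methylated windows was 47.1% in the last 1 Mb, 49.1% from 1 to 2 Mb, 44.0% from 2 to 5 Mb, 24.4% from 5 to 10 Mb, 18.0% from 10 to 20 Mb, 11.4% from 20 to 50 Mb and 11.7% beyond. The number of methylated dense windows per 1000 windows fell from 32 to 0.765 over this range, and that of low dense windows from 18.4 to 5.06.

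**Figure D3:**
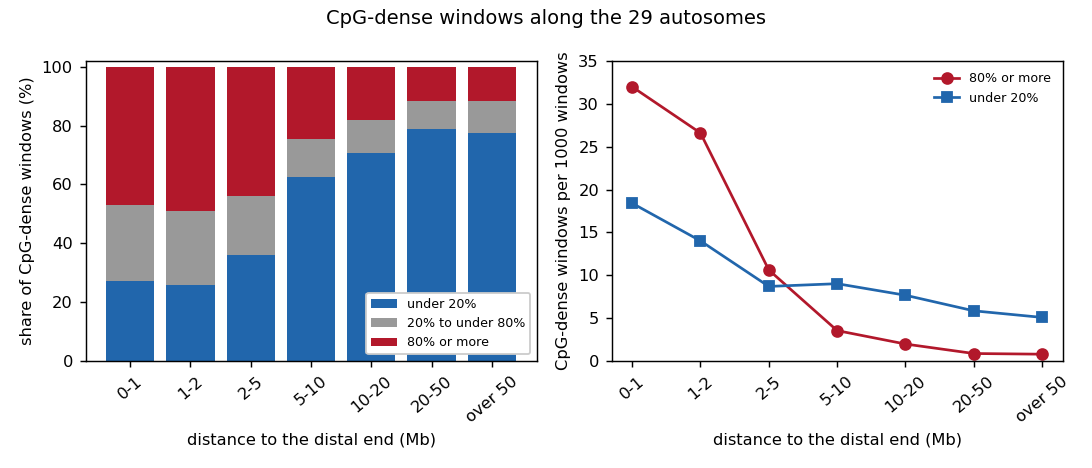
Left, share (%) of CpG-dense windows at 80% or more (red), from 20% to under 80% (grey) and under 20% (blue) by distance to the distal end of the autosome (Mb); right, number of red and blue windows per 1000 autosomal windows by the same distance. Windows at 80% or more fall from 47.1% to 11.7% of the dense windows and from 32 to 0.765 per 1000 windows.

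The opposite ends did not show this as a rule. The first 5 Mb of the autosomes held 763 methylated dense windows (8.0%), 26.6% of the dense windows there compared with 22% elsewhere, and the share was higher than elsewhere on 9 autosomes. Most of these windows were on 3 autosomes, namely 223 of 674 dense windows (33.1%) on chromosome 25, 182 of 511 (35.6%) on chromosome 14 and 51.8% of 195 on chromosome 24. The pair of 7-window runs on chromosome 14 lay in that stretch.

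By 1-Mb bins, methylated dense windows were found in 1150 of 2529 bins, and 72 bins held 50% of them. The 10 fullest bins held 1465 (15.4%). The fullest was 74 to 75 Mb of chromosome 17, with 241 methylated of 458 dense windows (52.6%). It was followed by 41 to 42 Mb of chromosome 25 with 183 of 300 (61%) and 60 to 61 Mb of chromosome 22 with 168 of 282 (59.6%). Of the 10 fullest bins, 9 started within 5 Mb of the distal end. The exception was the bin that starts at 109 Mb of chromosome 6, with 107 of 241 (44.4%), 10.5 Mb from the end.

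Autosomes differed widely. Chromosomes 22 (34.2%), 17 (33.6%) and 25 (33.6%) had the highest share of methylated windows among their dense windows, and chromosome 28 the lowest (7.36%, 36 windows). Relative to length, chromosome 25 held 9.40 methylated dense windows per 1000 windows and chromosome 28 held 0.445. In the distal 5 Mb the share ran from 10.8% on chromosome 28 and 29.1% on chromosome 18 to 56.3% on chromosome 12 and 63.0% on chromosome 27. Outside the distal ends it was highest on chromosome 27 (25.5%) and lowest on chromosomes 28 (6.65%) and 10 (6.66%). Chromosome 18, with 524 windows, differed least in proportion between its distal end (29.1%) and the rest (21.2%).

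**Figure D4:**
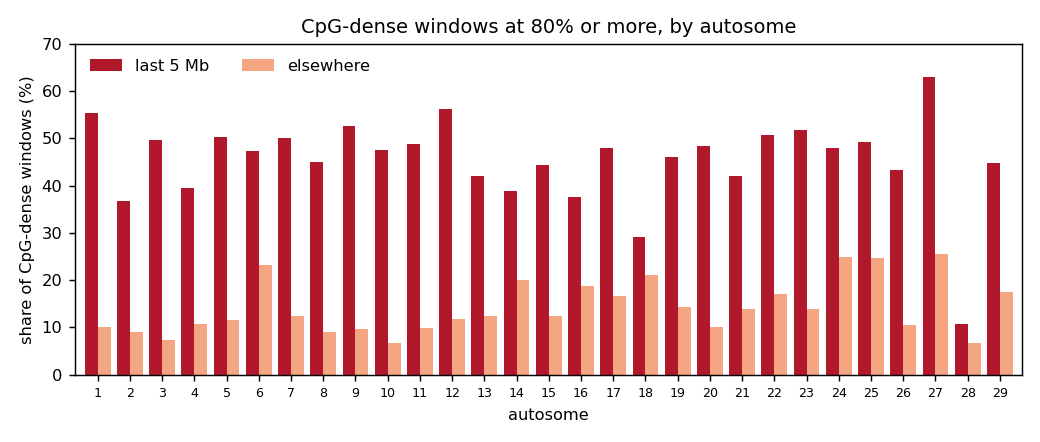
Share (%) of CpG-dense windows at 80% or more in the last 5 Mb (dark red) and in the rest (light red) of each of 29 autosomes. The dark bar is the taller one on every autosome, from 10.8% on chromosome 28 to 63.0% on chromosome 27.

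The level of DNA methylation in these windows was slightly higher in every butyrate library than in any control. Control libraries read 89.7%, 89.8% and 89.7%, with a mean of 89.7% ± 0.0453 (SD, n = 3). Butyrate libraries read 90.1%, 90.2% and 90.2%, with a mean of 90.2% ± 0.0254. The difference was 0.427 points (two-sided exact permutation test, p = 0.1, the smallest p that 3 against 3 libraries can give). Adjusted over a family of 61 such comparisons, the smallest value was 0.161, so no comparison of this kind could pass 0.05. Counting error alone gave each level a 95% Wilson half-width of at most 0.11 points. Within lane 6, where only butyrate replicate 2 stood against the controls, the difference was 0.434 points.

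A difference in the same direction was found outside these windows. All other autosomal windows read 65.6% ± 0.104 in control and 66.2% ± 0.101 in butyrate, a difference of 0.603 points without overlap (exact permutation test, p = 0.1). The difference in the methylated dense windows minus that in the others was −0.176 points, with overlapping libraries (exact permutation test, p = 0.2), and −0.0522 within lane 6. On the log2 odds of methylated to unmethylated reads the order was the other way. Butyrate minus control was then 0.07 in the methylated dense windows and 0.04 in the others, and the libraries did not overlap in the difference of 0.03 (exact permutation test, p = 0.1). Seen as unmethylated reads, the share changed by −4.16% of its control value (from 10.3% to 9.85%) in the methylated dense windows and by −1.75% (from 34.4% to 33.8%) elsewhere. Which of the places differed more therefore depended on the scale.

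Among dense windows, the intermediate ones differed by 0.613 points between groups (58.3% ± 0.122 to 58.9% ± 0.282), and the low ones by −0.00321 points (3.26% in both groups, exact permutation test, p = 0.9). The difference in methylated minus that in low dense windows was 0.431 points without overlap (exact permutation test, p = 0.1). Against the intermediate ones it was −0.186 points with overlap (p = 0.4 by the same exact permutation test), −0.337 without butyrate replicate 2, −0.0641 without butyrate replicate 3 and 0.118 within lane 6. The flanks of the methylated dense windows read 77.6% ± 0.207 in control and 78.1% ± 0.143 in butyrate, a difference of 0.51 points (exact permutation test, p = 0.1). The step from flank to window was not detectably different between groups (−0.0831 points, exact permutation test, p = 0.6). Relative read depth in the windows differed by −0.0389 (exact permutation test, p = 0.5), by −0.065 without control replicate 1 and by −0.00632 without control replicate 2.

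**Figure D5:**
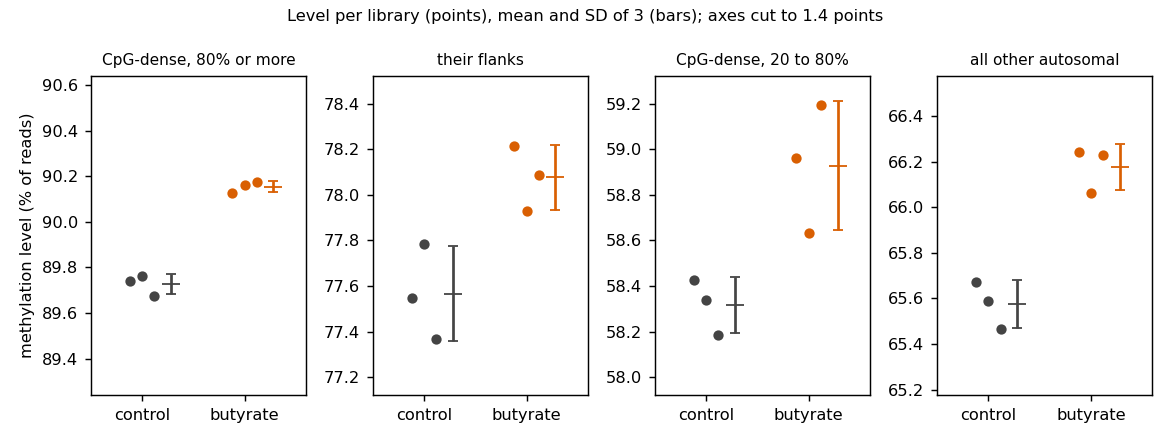
Methylation level (% of reads) of each library (points) with the mean and SD of 3 (bars) in control and butyrate, for CpG-dense windows at 80% or more, their flanks, CpG-dense windows from 20% to under 80%, and all other autosomal windows; each axis is cut to a span of 1.4 points. In all 4 panels the butyrate libraries are above the controls, by 0.427, 0.51, 0.613 and 0.603 points.

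The difference was present in most subsets of the windows. By crowding it was 0.442 points at 31 to 35 CpGs, 0.443 at 36 to 40 and 0.421 at 41 to 50, each without overlap, and 0.352 above 50 CpGs, with overlap. Within 5 Mb of the distal end it was 0.493 points, from 5 to 20 Mb 0.322 and beyond 20 Mb 0.381, each without overlap. By pooled level it was 0.575 points in windows from 80% to 85%, 0.496 from 85% to 90%, 0.444 from 90% to 95% and 0.0782 above 95%, with overlap in the last class (exact permutation test, p = 0.7). By distance to the nearest CpG it was 0.248 points at up to 2 bp, with overlap, and 0.401 to 0.532 in the wider classes. Differences between subsets were not tested.

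By autosome, the mean was higher in butyrate on 26 of 29 autosomes, from 0.057 points on chromosome 26 to 0.916 on chromosome 3. The groups did not overlap on 16 autosomes, of which 14 were higher in butyrate. In all other windows of the same autosomes, which hold far more reads, the groups did not overlap on 96.6% of the autosomes, all of them higher. Chromosomes 8, 10 and 28 had lower means in butyrate, by −0.536, −0.805 and −0.536 points, without overlap on 10 and 28. The other windows of these 3 autosomes were higher in butyrate, by 0.641, 0.607 and 0.606 points.

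Window by window, few differences passed. In a design close to that of the study, which kept cytosines with 10 or more reads and adjusted by the SLIM method, 10 reads were required in every library and the adjustment was that of Benjamini and Hochberg. It could test 8874 windows (logistic regression of methylated and unmethylated counts, called at a Benjamini-Hochberg q under 0.05 and a difference over 10 points). Only 2 methylated dense windows were among them. None was called, none had an unadjusted p under 0.05, and 0.789% of all windows tested were called. Here and in the next design, the windows tested lay on all sequences, not on autosomes alone, and needed no minimum of CpGs. As a background they were not matched to the methylated dense windows in CpGs, level or depth. When all cytosines of a window were summed and 10 reads per library required, 103361 windows could be tested, with 6048 methylated dense windows (63.4%). Of these, 15 (0.248%) were called, compared with 0.517% of all windows tested. In butyrate 14 were higher (0.274% of all windows were called higher) and 1 was lower (0.243% were called lower). Without control replicate 1 there were 23 calls among 6659 methylated dense windows tested (0.469% of all windows were called). Without control replicate 2 there were 25 among 6228 (0.509% of all).

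Several shares of the differences, and their median, were close to those of all windows. An unadjusted p under 0.05 was found for 558 methylated dense windows (9.23%), compared with 10.4% of all windows. Groups without overlap were found for 608 (10.1%, compared with 9.33% of all windows), 357 of them higher and 251 lower (5.33% and 4.0% of all windows). The pooled difference was above 0 in 53.7%, compared with 53.0% of all windows, with a median of 0.39 points compared with 0.30. It was within 10 points in 95.5% of the methylated dense windows and within 5 points in 73.6%. By the quasi-binomial F test and by limma no methylated dense window was called. An unadjusted p under 0.05 was found for 303 (5.01%, compared with 5.74% of all windows) by the F test and for 359 (5.94%, compared with 5.46%) by limma. Unlike the logistic test, which weighs counting error alone, both of these take in the spread between libraries.

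Of the 15 called windows, 9 were within 5 Mb of the distal end, where 51.9% of the methylated dense windows tested lay. In 12 of the 15 the groups did not overlap, as in 65.9% of all windows called. The difference was between 11.7 and 21.8 points in size. At chr24:20411501-20412000 (46 CpGs, 275 reads) control libraries read 87.0%, 62.5% and 82.0% and butyrate libraries 96.8%, 95.2% and 89.3%. The pooled difference was 21.7 points (logistic regression with Benjamini-Hochberg adjustment, q = 0.000894), of which 10.7 were left without control replicate 2 (q = 0.336). Without butyrate replicate 2 its q was 0.0605. Control replicate 2 was both the lowest library and the one with most reads in that window.

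At chr23:27275001-27275500 (38 CpGs) control libraries read 69.6%, 86.7% and 67.5% and butyrate libraries 100%, 93.3% and 95.1%. The difference of 21.8 points (same test, q = 0.00163) had q = 0.0853 without control replicate 3. At chr9:103874501-103875000 (37 CpGs) control libraries read 76.9%, 70% and 91.7% and butyrate libraries 98.0%, 97.1% and 100%. The difference was 21.8 points (q = 0.00163), with q = 0.0768 without control replicate 2. At both places the controls were spread over more points than the butyrate libraries.

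At chr3:118995501-118996000 (37 CpGs) all butyrate libraries read 100%, of 21, 18 and 34 reads summed over the cytosines, and the controls 88.3%, 75.9% and 86.8%. The difference was 15 points (same test, q = 0.00798), with q = 0.0993 without butyrate replicate 3. The only call in the other direction was at chr23:51468001-51468500 (43 CpGs), where controls read 93.2%, 90.9% and 98.1% and butyrate libraries 86.5%, 79.5% and 61.9%. Its difference was −16.6 points (q = 0.0418), and q was over 0.05 without control replicate 1 or 3 (0.0689 and 0.303) and without butyrate replicate 2 or 3 (0.09 and 0.244). With lane in the model, the window on chromosome 24 kept its call (q = 0.0144), and the other 4 had q from 0.194 to 0.385.

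The windows with most CpGs were on chromosomes 25 and 21, and of these 5 windows 3 had the 10 reads per library that the test needs, without a call. The most crowded was chr25:35243501-35244000, with 89 CpGs and 329 reads. Its controls read 76.7%, 90.6% and 93.3% and its butyrate libraries 92.3%, 90.7% and 90%, so a single control lay below the rest. Next came chr25:39013501-39014000 with 80 CpGs, where control libraries read 100%, 92.3% and 91.3%, butyrate replicates 2 and 3 read 95.2% and 98.4%, and butyrate replicate 1 had no read, so that it was not tested. The neighbouring window from 39014001 had 74 CpGs and a pooled level of 91.5%, and was not tested, with 9 reads in control replicate 3. At chr21:68908501-68909000, with 76 CpGs, the libraries lay from 88.9% to 100%. At chr25:38989501-38990000, also with 74 CpGs, control libraries read 94.6%, 93.6% and 94.0%. The butyrate libraries there read 84.2%, 81.8% and 94.4%, of 19, 11 and 54 reads.

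The windows with most reads differed in their spread between libraries. They lay far above the median of 206 reads per window. Depth among the methylated dense windows reached 19.8 reads per cytosine, just under the limit of 20. At chr6:8900001-8900500 (35 CpGs, 1383 reads, 111 Mb from the distal end) control libraries read 88.9%, 86.5% and 86.3% and butyrate libraries 86.2%, 88.5% and 87.2%. Their means were 87.2% ± 1.43 and 87.3% ± 1.12 (SD, n = 3). At chr4:120644501-120645000 (1178 reads) the means were 90.8% ± 2.20 and 89.8% ± 3.87, and at chr19:57729001-57729500 (1105 reads) 85.4% ± 3.73 and 86.1% ± 3.63. In each of these 3 windows the groups overlapped.

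The limit of 80% cut through a continuous range. Just inside it, at a pooled 80%, lay chr2:135932501-135933000 with 125 reads, chr4:119951501-119952000 with 150 and chr6:108719001-108719500 with 235. Just outside, at a pooled 79.9%, lay chr13:82963501-82964000 with 349 reads, chr24:40564001-40564500 with 279 and chr14:4409501-4410000 with 259. Single libraries ran from 52.9% to 100% in the first 3 windows and from 62.9% to 93.9% in the others, and the ranges overlapped.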

How the data were processed

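Per the labels, DNA of 3 control and 3 butyrate samples was made into Pico Methyl-Seq libraries from 100 ng each. The authors trimmed reads with Trim Galore 0.4.1 and aligned and called them with Bismark and bowtie2 on the UMD3.1 assembly. The deposited values are counts of methylated and unmethylated reads per CpG cytosine, with no normalization. The columns carry no names. The third was taken as methylated, since it held 8.82% of the mitochondrial reads. Sources differ on read length, layout and the release of the assembly. Counts were summed over windows of 500 bp from position 1, and rows at neighbouring positions were taken as both strands of a CpG. Scripts ran in Python 3.11.15 (NumPy 2.4.6, SciPy 1.17.1) and R 4.3.3. Levels were compared by two-sided exact permutation of libraries. Windows were tested by logistic regression with a likelihood-ratio test and Benjamini-Hochberg adjustment. Alternatives were limma 3.58.1 on log2 ratios (pseudocount 1) and a quasi-binomial F test. The logistic and F tests, but not limma, were tried on simulated counts that had no spread between libraries beyond counting error. The q values are over all windows tested. Intervals are at 95% confidence.

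The window classes, lists and tests were chosen with earlier results of these data known. Named windows follow a rule: the 5 with most CpGs, the 3 with most reads, the 3 longest runs (ties in genome order), the 3 nearest the limit on each side among windows of 100 or more reads, up to 4 calls in each direction with the smallest q and no overlap, and the window with the widest departure of a library. The fullest 1-Mb bins and autosomes were named after their values were seen. Genes, gene features and sequences at the windows were not analysed here, since no genome or annotation of this build was used, and the gene lists and gene-feature counts planned for them were not run.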

Additional observations from a re-analysis of the deposited data

How the results depend on the processing

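At this depth a library gave few reads per window, so single windows are known less well than their sum. The treatment difference in the methylated dense windows kept its direction and its lack of overlap under the other limits, a shifted grid, equal window weights, either strand and lane 6 alone (0.306 to 0.484 points), and was 0.402 to 0.446 points with a library left out. The difference relative to other autosomal windows (−0.176) ranged from −0.238 to −0.129 with a library left out, without overlap when control replicate 1 or butyrate replicate 2 was left out, was −0.0522 in lane 6, and turned to 0.0294 on the log2 odds scale, an alternative chosen after seeing the data like lane 6 for these contrasts. Relative to intermediate dense windows (−0.186) it ranged from −0.337 (without butyrate replicate 2, no overlap) to −0.0641 (without butyrate replicate 3), and was 0.118 in lane 6. Relative to low dense windows it was 0.403 to 0.486, in the flanks 0.411 to 0.618, and in relative depth −0.065 to −0.00632 with a library left out. Replicate numbers showed no sign of pairing the samples: deviations of same-numbered libraries correlated at −0.0016, 0.0049 and −0.0019 over windows. Differently numbered libraries correlated at −0.0057 to 0.0072. With few reads per window these values could not exclude pairing. With a replicate block, the difference relative to other windows (−0.176) had the same sign in all 3 pairs (paired exact permutation test, p = 0.25, the smallest that 3 pairs allow). The treatment difference in the windows, that relative to low dense windows and that in the flanks also had p = 0.25 (paired exact permutation test). Relative to intermediate dense windows the sign differed between pairs (paired exact permutation test, p = 0.5). Pairing cannot change the mean difference of 3 pairs, so the kept direction says nothing. With the block, 23 methylated dense windows were called instead of 15 (0.591% of all windows tested instead of 0.517%). Each other setting gave its own count, and shared windows were not counted: 6 with lane in the model (0.378% of all), 5 at over 20 points (0.376%), 17 with a minimum of 5 reads (0.241%), 10 with a minimum of 20 reads (0.641%), 0 by the quasi-binomial F test (0.00387%), 0 by limma (0% of all), and 12 to 25 with a library left out (0.438% to 0.509% of all; 23 without control replicate 1, 25 without control replicate 2). The 10-read design had at most 11 methylated dense windows to test under any alternative, so its lack of calls says nothing. Among windows of over 40 CpGs, 48.9% of the methylated ones were in the distal 5 Mb instead of 52.2%. The cause of these changes was not tested. Flank contrasts kept their direction at both other distances, and a minimum of 100 pooled reads gave 89.6% in a left-out library instead of 89.5%. Choosing unmethylated cytosines by 10 reads left no read in the other group, and a gene-feature count was not run.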

Other observations

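CpG-dense windows outside the 9540 autosomal ones also reached high levels. On the X chromosome 121 of 989 CpG-dense windows (12.2%) were at 80% or more, and their libraries read 89.3% to 91.7%. On unplaced scaffolds 467 of 1234 (37.8%) were at 80% or more, with libraries from 83.2% to 84.4%, and a further 55.0% lay from 60% to 80%. Of the 2500 autosomal CpG-dense windows left out for 20 or more reads per cytosine, 89 (3.56%) were at 80% or more and 85.3% lay from 60% to 80%, with a median of 70.6%. The windows at 80% or more differed between butyrate and control by −0.431 points on the X chromosome and by 0.548 points on unplaced scaffolds, with overlapping libraries in both (exact permutation test, p = 0.6 and p = 0.2).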
